A study of Bos taurus with 12 samples.

Results

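The genes described here encode proteins that the ruminant trophoblast releases: interferon tau (IFNT, IFNT2, IFNT3), pregnancy-associated glycoproteins (PAG2, PAG8, PAG11, PAG12), the trophoblast Kunitz domain protein TKDP1, the Ly-6 family protein SSLP1 and the placental lactogen CSH2. They were chosen by symbol, and 9 of the 10 symbols are listed in a table of 32637 bovine genes. IFNT is not listed under that symbol. RefSeq gives IFNT as an older name of both IFNT2 and IFNT3, so it is covered by those genes.

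The trophectoderm is the outer layer of the blastocyst and the source of the trophoblast. In cattle and sheep it secretes interferon tau, the signal by which the mother recognises the pregnancy, which keeps the corpus luteum from regressing. Pregnancy-associated glycoproteins are a large family related to aspartic proteinases, many of them without enzyme activity, and they are measured in maternal blood as a test of pregnancy. Kunitz domain proteins of the trophoblast resemble proteinase inhibitors and are abundant around the time of implantation. Placental lactogen is a prolactin-related hormone of the binucleate cells, which arise later than the stage studied here.

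Gene expression was measured in 6 female and 5 male pools of expanded blastocysts of Bos taurus, which carried no genetic change and received no treatment beyond culture. The embryos were produced in vitro and cut into 2 pieces, and each pool joined pieces of 2 embryos of the same sex. By the study's methods, RNA of the cut embryos came from both cell layers, and the piece not sequenced was used to type the sex by PCR. The collection day and the bull of each pool are not given in the labels, and a further long-read sample of 4-cell embryos was not used.

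Counted reads per library ranged from 6664112 to 21392764. The 13 tested Y-linked genes summed to between 248 and 859 counts in female libraries and between 7854 and 15158 in male ones. Summed over 10 trophectoderm markers, the level was 7879 to 23154 CPM in females and 9195 to 36145 CPM in males. CPM are read counts made comparable between libraries by depth and edgeR's TMM factors. All 10 markers had counts. The highest means were those of KRT8 (4752 CPM in females, 8132 CPM in males), LGALS3 (5243 and 6018 CPM), PTGS2 (2511 and 1204 CPM) and KRT18 (1465 and 1863 CPM). GATA3 was at 147 and 125 CPM and CDX2 at 4.63 and 7.86 CPM. Summed over 7 markers of cumulus cells, which surround the oocyte, the level was 7.19 to 32.7 CPM in females and 5.38 to 29.5 CPM in males. The library male 5 stood apart, with correlations of log2 CPM across genes of 0.861 to 0.887 with the other males, against 0.936 to 0.963 among those. Results are therefore also given without it. In such bulk samples, fewer cells of a type and less RNA per cell cannot be told apart.

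Of the 9 listed genes, 7 had enough counts to be tested between the sexes, PAG12 had counts but too few, and CSH2 had none. None of the 7 passed the thresholds for a sex difference (FDR under 0.1 and fold over 1.5 in edgeR's quasi-likelihood test), where 1.91% of the 12802 tested genes did (0.414% higher in males, 1.5% higher in females). At an unadjusted p under 0.05 there was 1 of the 7, PAG8, against 13.2% of tested genes. The sexes overlapped in all 7, while 3.31% of tested genes had no overlap (1.88% with all females above, 1.43% with all males above). The estimates were wide: 5 of the 7 were fitted lower and 2 higher in males. The median log2 fold change (male over female) was -1.08, against 0.01 over all tested genes, and 49.5% of all tested genes were fitted lower in males. SSLP1, among the 5 lower ones, changed sign under other fits. None of the 7 was called by DESeq2, or by edgeR without male 5. With no filter on low counts, edgeR called 4 of them lower in males (IFNT3, adjusted p = 1.9e-05, TKDP1, 0.00499, IFNT2, 0.0427, and PAG8, 0.0472), where it called 3.11% of 23857 genes (2.24% lower in males). The estimate of IFNT3 was -1.36 in both fits, while its SE fell from 1.20 to 0.255. For TKDP1 the SE fell from 1.30 to 0.271. DESeq2, which called none of the 7, was also run on 23857 genes. Its default filter on mean count was left on, so it is no unfiltered match to that edgeR fit.

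**Figure D1:**
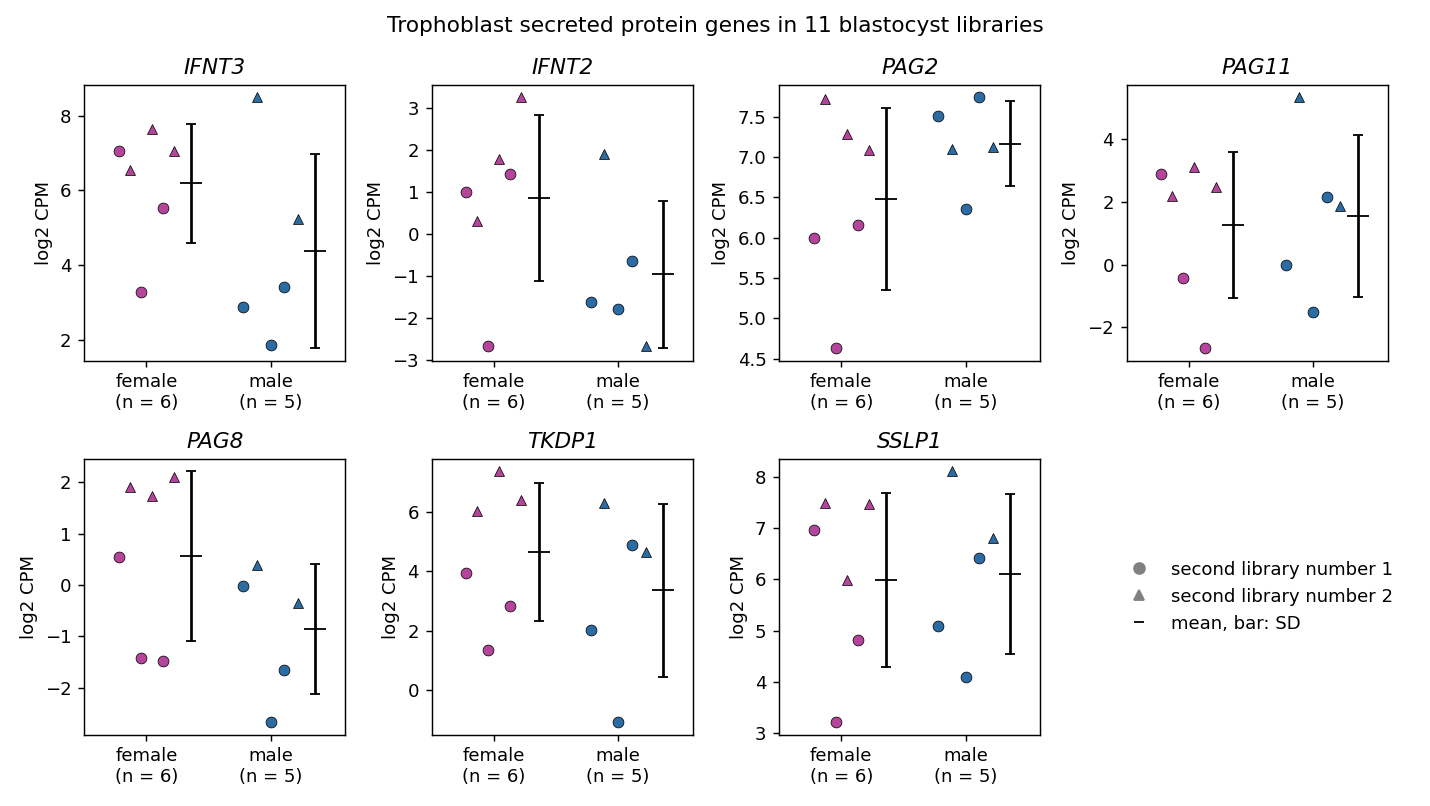
Level of the 7 tested genes in each library, as log2 CPM with a prior count of 2 (y axis), by sex (x axis). Points are libraries, circles and triangles mark the second number of the library name, and the bars give mean and SD for 6 female and 5 male pools. The sexes overlap in every panel, and the panel of PAG2 has the narrowest spread.

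IFNT3 had the most counts of the genes named interferon tau in the table. It lies at chr8:22582520-22583580 of the assembly ARS-UCD2.0. In females its level was lowest in female 3 (9.59 CPM), had a median of 113 CPM and was highest in female 4 (201 CPM). In males it was 7.12, 360, 3.48, 10.6 and 37.2 CPM in male 1 to male 5. A single male library, male 2, held the highest level of all, while the males 1 and 3 lay below every female and male 4 lay just above the lowest one.

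The means of IFNT3 were 103 ± 68.4 CPM in females (SD, n = 6) and 83.7 ± 155 CPM in males (SD, n = 5), but the medians were 113 and 10.6 CPM. The fitted log2 fold change was -1.36 (SE 1.20, 95% interval -3.98 to 1.26, adjusted p = 0.686 by edgeR with Benjamini-Hochberg adjustment). Without male 5 it was -1.62 (SE 1.52, adjusted p = 0.650). Without male 2 it was -3.23, with an adjusted p of 0.192 in the same edgeR test, so that library alone moved the estimate by more than the SE. Differences in mean log2 CPM within the library numbers 1, 2 and 3, the first number of the library name, were -1.12, -3.61 and -1.97. Number 2 holds 1 male, male 3. Within number 1, mean CPM was higher in males (184 CPM against 113 CPM in females), and it was lower in males within numbers 2 and 3.

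IFNT2, a near-identical copy of interferon tau at chr8:22608434-22609746, was read far less. Its levels had a median of 2.16 CPM in females, with 0 in female 3 and 9.32 CPM in female 6. In males they were 0.165, 3.59, 0.129, 0.477 and 0 CPM in male 1 to male 5. Males were low except for male 2, and all 5 lay within the female range. The log2 fold change was -2.39 (SE 1.46, 95% interval -5.58 to 0.79, adjusted p = 0.526 by edgeR), and -1.55 (SE 1.30, adjusted p = 0.603) without male 5. How reads that fit both copies were counted is not given in the sources used here, so the split between IFNT2 and IFNT3 is uncertain.

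The interferon genes lack introns, which allows their levels to be set side by side per kilobase of gene span. The mean over the 11 libraries was 88.6 CPM per kb for IFNT3, 2.86 for IFN-tau-c1 (chr8:22633306-22633893), 1.55 for IFNT2 and 0.493 for IFN-TAU (chr8:22813215-22813845). IFN-tau-c1 and IFN-TAU were named after their values were seen. In the stretch of chromosome 8 from IFNT3 to IFNB1, 51 protein-coding genes are listed, 22 of them had counts, and IFNT3 alone held 81.8% of the 13717 counts. An unplaced protein-coding gene outside this stretch, LOC112445660, was at 80.8 CPM in females and 56.6 CPM in males and followed IFNT3 closely over the libraries. The annotation used here does not say what it encodes, and whether it is a further interferon tau copy that shares reads with IFNT3 was not tested, so the order and the share given here hold for the named genes alone.

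The PAG genes named here lie on chromosome 29. PAG2, at chr29:37572051-37581465, belongs to the ancient group of the family, which is expressed in the whole trophoblast. Its level ran from 24.6 CPM in female 3 through a median of 104 CPM to 210 CPM in female 2 among females. In male 1 to male 5 it was 182, 137, 81.8, 214 and 140 CPM. Female 3 was the lowest library and male 4 the highest, and 4 of the 5 males lay within the female range.

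Means of PAG2 were 110.4 ± 69.0 CPM in females (SD, n = 6) and 151 ± 50.05 CPM in males (SD, n = 5), with a log2 fold change of 0.34 (SE 0.44, 95% interval -0.61 to 1.29, adjusted p = 0.794 by edgeR). Without male 5 the value was 0.38 (SE 0.47, adjusted p = 0.740). Leaving out single libraries gave 0.16 (without female 1) to 0.73 (without female 4), and a fit with both library numbers gave 0.71. Within the library numbers 1, 2 and 3, the differences in mean log2 CPM were 0.45, 0.40 and 0.81. In number 2, which holds 1 male, mean CPM was lower in the male (81.8 CPM against 90.2 CPM in females), and it was higher in males within numbers 1 and 3. The highest library held 8.70 times the level of the lowest, against 104 times for IFNT3.

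PAG11, at chr29:39438824-39456485, was low in most libraries. It reached 40.2 CPM in male 2 alone, while male 1, 3, 4 and 5 held 0.827, 0.193, 4.29 and 3.49 CPM. Females ran from 0 in female 5 through a median of 4.93 CPM to 8.53 CPM in female 4. Male 2 stood above every other library, and the other males lay within the female range. The log2 fold change was 0.43 (SE 1.27, adjusted p = 0.923 by edgeR), and -1.48 without male 2.

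PAG8, at chr29:39726286-39736548, had 180 counts in all. Its levels had a median of 2.23 CPM in females, between 0.2001 CPM in female 5 and 4.15 CPM in female 6. The male levels were 0.827, 1.16, 0, 0.159 and 0.630 CPM in male 1 to male 5. Males were low and 3 of the 5 lay within the female range. The log2 fold change was -2.35 (SE 0.999, 95% interval -4.52 to -0.18), with an unadjusted p of 0.0362 and an adjusted p of 0.341 by edgeR. Without male 5 it was -2.61 (SE 1.12, adjusted p = 0.275). Without female 6 it was -1.51, with an unadjusted p of 0.221 by edgeR, and the unadjusted p was also over 0.05 without female 2 or male 1, 3 or 4, and with no block (0.055). It was under 0.05 without female 1, 3, 4 or 5 or male 2 or 5, and with both library numbers as blocks (0.0377). By DESeq2 the log2 fold change was -2.47, with an unadjusted p of 0.00571 and an adjusted p of 0.115.

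PAG12, at chr29:37655999-37666176, had 14 counts in all: 5 in female 2, 3 in female 6 and 6 in male 1. The difference between the sexes had a p of 0.848 in a two-sided exact permutation test, for which 0.00216 is the smallest value the 462 splits allow. Over the 19 listed PAG symbols between PAG10 and PAG8 on chromosome 29, 10 had counts, and PAG2 held 94.3% of the 18514. The symbol PAG1 belongs to a gene on chromosome 14 that is no glycoprotein of this family, and it was the only tested gene in a list of 33 further symbols of the same secreted families (5.91 ± 1.82 CPM in females, 2.81 ± 1.85 CPM in males, SD, n = 6 and n = 5, log2 fold change -1.14, adjusted p = 0.345 by edgeR).

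TKDP1, at chr13:74075296-74092083, varied the most. Female libraries ran from 2.40 CPM in female 3 through a median of 39.9 CPM to 163 CPM in female 4. In male 1 to male 5 the level was 3.89, 78.0, 0.322, 29.5 and 24.9 CPM. The highest library held 508 times the level of the lowest, male 3, and 4 of the 5 males lay within the female range. The log2 fold change was -1.08 (SE 1.30, 95% interval -3.90 to 1.73, adjusted p = 0.775 by edgeR). Without male 5 it was -1.10 (SE 1.45, adjusted p = 0.758). The neighbours TKDP4 and TKDP2 had 23 and 20 counts in all.

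SSLP1, at chr29:29084974-29092471, is a small secreted Ly-6 domain protein of the trophoblast. It ran from 9.16 CPM in female 3 through a median of 94.0 CPM to 180 CPM in female 2 among females. In male 1 to male 5 it was 34.1, 276, 16.99, 84.9 and 112 CPM. The male median was 84.9 CPM, and male 2 was again the highest library, above every female. The log2 fold change was -0.26 (SE 0.62, 95% interval -1.60 to 1.08, adjusted p = 0.903 by edgeR), and -0.35 (SE 0.68, adjusted p = 0.844) without male 5. The direction turned with no block (0.11), with both library numbers as blocks (0.026), and without female 4 (0.16) or female 6 (0.17).

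CSH2, at chr23:35287200-35299843, had 0 counts in all 11 libraries. A limit of 3 counts corresponds to 0.145 to 0.413 CPM, depending on the library, and covers counting error only. Of the 26 listed symbols among the 33 further ones, 16 also had 0 counts. Among them were 7 of the 8 listed prolactin-related proteins, and the last of them, PRP8, had 1 count.

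Summed over the listed genes, the level was 376 ± 233 CPM in females (SD, n = 6) and 378 ± 304 CPM in males (SD, n = 5), or between 0.00503% and 0.0853% of all counts. The medians were 448 and 317 CPM. The difference of the means, 2.29 CPM, was small beside the spread. Without male 2 the male mean was lower than the female mean, by a difference of -127 CPM. The male mean was also lower without female 1 (-3.56 CPM), female 3 (-63.5 CPM) or female 5 (-41.8 CPM), and with CPM from library totals (-28.2 CPM). It stayed higher when any other single library was left out. The sum was lowest in female 3 (46.5 CPM) and highest in male 2 (896 CPM). Libraries also differed in the makeup of the sum. IFNT3 made up 16.8% to 38.3% of it in females, and 3.07%, 3.10%, 3.38%, 11.7% and 40.2% in the males in rising order. PAG2 made up 18.4% to 52.8% in females and 15.3% to 79.5% in males. The ratio of IFNT3 to PAG2 was between 0.391 and 2.08 in females, and in male 1 to male 5 it was 0.0391, 2.63, 0.0425, 0.0494 and 0.266.

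The spread between pools of the same sex was large for these genes. The SD of log2 CPM within sex was 2.10 for IFNT3, 2.60 for TKDP1, 1.64 for SSLP1 and 0.91 for PAG2, against a median of 0.48 over all tested genes. Of the tested genes within 0.5 log2 units of the same mean level, 0.318% had at least the SD of IFNT3, 0.0587% that of TKDP1, 0.210% that of SSLP1 and 1.92% that of PAG2. For PAG11, IFNT2 and PAG8 these shares were 0.405%, 0.929% and 8.26%. With 2 embryos in each pool, differences between embryos and between pools cannot be told apart.

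**Figure D2:**
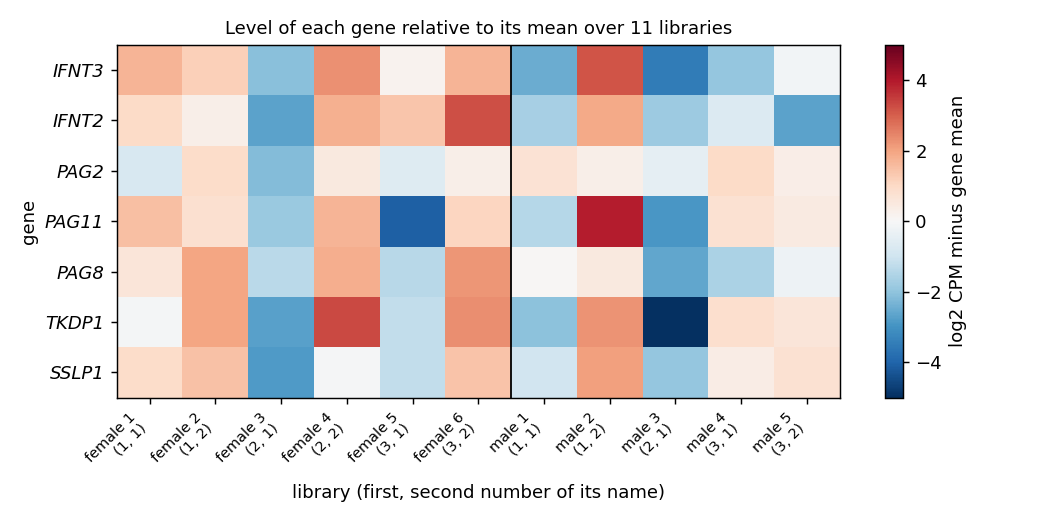
Level of each tested gene (rows) in each library (columns) as log2 CPM minus the gene's mean over the 11 libraries, with the first and second number of the library name under each column and a line between the sexes. Female 3 is low in all 7 genes and male 2 is above the mean in all 7, by little in PAG2 and PAG8.

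The levels of the 7 genes were compared with each other over the 11 libraries in 21 pairwise correlations of log2 CPM. Every Pearson r was positive (0.22 to 0.84), also over the 6 females alone and without male 5 (0.23 to 0.87). After leaving out the 2 libraries farthest in the first gene, 20 of the 21 were still positive. With 100000 permutations, 10 of the 21 had a Benjamini-Hochberg adjusted p under 0.05. How often pairs of other genes reach such values was not tested. By r with each sex centred, the members ranked from 35 (SSLP1) to 1694 (PAG2) among 12801 other tested genes for IFNT3. Here and below, the permutations shuffled all 11 libraries freely. They did not take into account the second number of the library name, which also went with the levels. The libraries share their depth scaling and their pools, so the genes are not independent replicates.

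Of the pairs with IFNT3, that with TKDP1 had the highest r over all 11 libraries, with r = 0.84 (permutation p = 0.00131, adjusted 0.0134) and rho = 0.85 (permutation p = 0.00156, adjusted 0.0157). Without male 3 and male 2, the farthest in IFNT3, r was 0.75. It was 0.88 over the 6 females. Without male 5, the pair with IFNT2 was higher (0.87 against 0.84), and with each sex centred on its own mean, that with SSLP1 was (0.86 against 0.83). With SSLP1, IFNT3 had r = 0.76 (permutation p = 0.0086, adjusted 0.0226) and rho = 0.73 (permutation p = 0.0141, adjusted 0.0313), and r was 0.62 without the 2 farthest libraries. With PAG11 it was 0.72 (permutation p = 0.0131, adjusted 0.0306) with rho = 0.84 (permutation p = 0.00224, adjusted 0.0157), and r was 0.51 without those libraries. Between PAG2 and IFNT3, the pooled r was 0.22 (permutation p = 0.525, adjusted 0.525) and rho = 0.03 (permutation p = 0.947, adjusted 0.947), and r was 0.14 without those libraries. Over the 6 females alone r was 0.82, and with each sex centred it was 0.46. The 6 pairs with PAG2 had r of 0.22 to 0.64, and none had an adjusted p under 0.05.

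**Figure D3:**
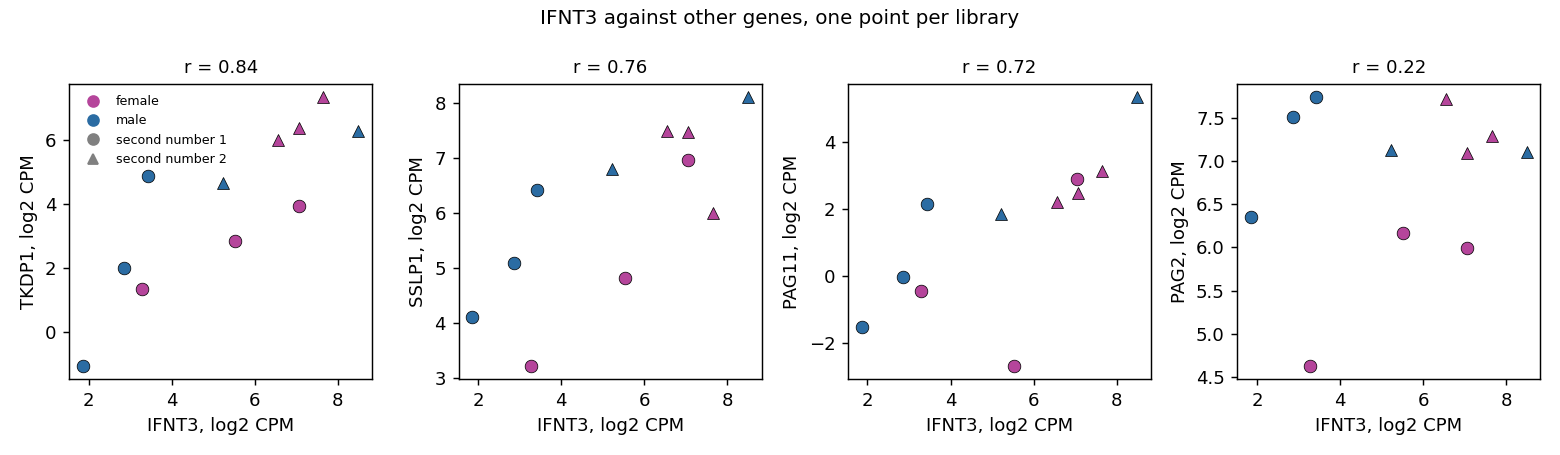
Level of TKDP1, SSLP1, PAG11 and PAG2 (y axes) against IFNT3 (x axes), all in log2 CPM, with a point for each of the 11 libraries, colours for sex and shapes for the second number of the library name. Pearson r is 0.84, 0.76, 0.72 and 0.22 from left to right, and in the PAG2 panel r is 0.82 over the 6 females alone, with the males 1, 3 and 4 at low IFNT3.

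The second number of the library name also went with the levels, a pattern that was noticed in these values and then fitted. The labels do not say what it marks. The 5 libraries with number 2 (female 2, 4 and 6 and male 2 and 5) held 584 ± 207 CPM of the summed genes (SD, n = 5) and the 6 with number 1 held 204 ± 125 CPM (SD, n = 6). In a fit with both numbers and sex, all 7 genes were higher in number 2, with a median log2 difference of 2.38 against -0.01 over all tested genes. None of the 7 was called, where 0.00781% of tested genes were. At an unadjusted p under 0.05 there were 5 of the 7, against 8.97% of tested genes. The split was picked on these same genes, which vary together over the libraries. This share and the p-values of the split are therefore no independent test of it.

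For IFNT3 the log2 difference between the numbers was 2.88 (SE 0.66, 95% interval 1.44 to 4.32, adjusted p = 0.226 by edgeR). For TKDP1 it was 3.32 (SE 0.89, adjusted p = 0.273) and for SSLP1 1.66 (SE 0.39, adjusted p = 0.239), both by edgeR. For PAG2 it was 0.87 (SE 0.41, adjusted p = 0.570 by edgeR). Without male 5 the values were 3.06, 3.83, 1.81 and 1.23, and none of the 7 genes was called. Within number 1, mean IFNT3 was 62.7 CPM in 3 females and 7.05 CPM in 3 males, whose ranges overlapped. Within number 2 it was 143 CPM in 3 females and 199 CPM in 2 males.

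**Figure D4:**
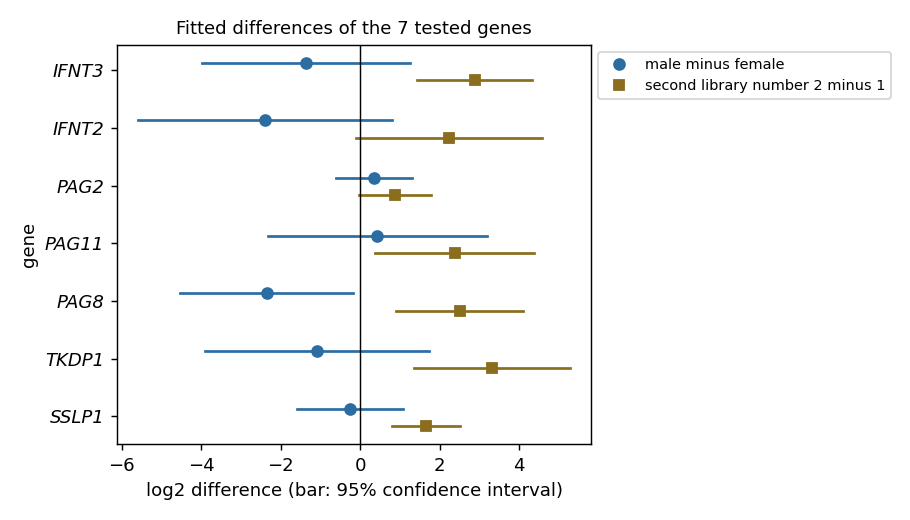
Fitted log2 differences of the 7 tested genes, with 95% confidence intervals: male minus female with the first library number as block (circles), and second library number 2 minus 1 (squares). Of the intervals for sex, that of PAG8 alone leaves out 0, and for the second number those of IFNT2 and PAG2 include 0.

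Values of marker genes of the cell layers are given beside these levels. The summed trophectoderm markers were lowest in female 3 (7879 CPM), the library with the lowest member sum, and highest in male 5 (36145 CPM). That sum is made up mostly of KRT8, LGALS3, PTGS2 and KRT18. The summed inner cell mass markers, 6 genes including POU5F1 and NANOG, ran from 560 to 980 CPM in females and from 792 to 1076 CPM in males. The highest means were those of POU5F1 (345 CPM in females, 464 CPM in males) and SPIC (286 and 300 CPM). POU5F1 is also in the list of transcription factors given below, and relations with this sum were not tested without it. All 6 markers had a higher fitted level in males, none of them called. Their log2 fold changes ran from 0.007 (LIN28A) to 0.83 (NANOG), with a median of 0.18. Of all tested genes, 49.5% were fitted lower in males and 1.91% were called. Over 11 libraries, IFNT3 had r = -0.73 with the log2 inner cell mass sum (permutation p = 0.0111, adjusted 0.0621 over 14 relations) and rho = -0.76 (permutation p = 0.00831, adjusted 0.1002). It was -0.71 without the 2 farthest libraries and -0.74 without male 5. With the trophectoderm sum, IFNT3 had r = 0.52 (permutation p = 0.0973, adjusted 0.195) and rho = 0.55 (permutation p = 0.0821, adjusted 0.192). It was 0.69 without the 2 farthest libraries, male 5 and female 1, and 0.70 without male 5 alone.

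IFNT2 had r = -0.80 with the inner cell mass sum (permutation p = 0.00275, adjusted 0.0385) and rho = -0.73 (permutation p = 0.0143, adjusted 0.1002), and r was -0.71 without the 2 farthest libraries. SSLP1 had r = 0.71 with the trophectoderm sum (permutation p = 0.0133, adjusted 0.0621) and rho = 0.65 (permutation p = 0.0336, adjusted 0.118). Its r was 0.83 without the 2 farthest libraries and 0.81 without male 5. PAG2 had r = 0.03 with the inner cell mass sum (permutation p = 0.936, adjusted 0.936) and rho = 0.31 (permutation p = 0.359, adjusted 0.386), and r was -0.02 without the 2 farthest libraries. The part of the cell layers in these levels was not tested.

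**Figure D5:**
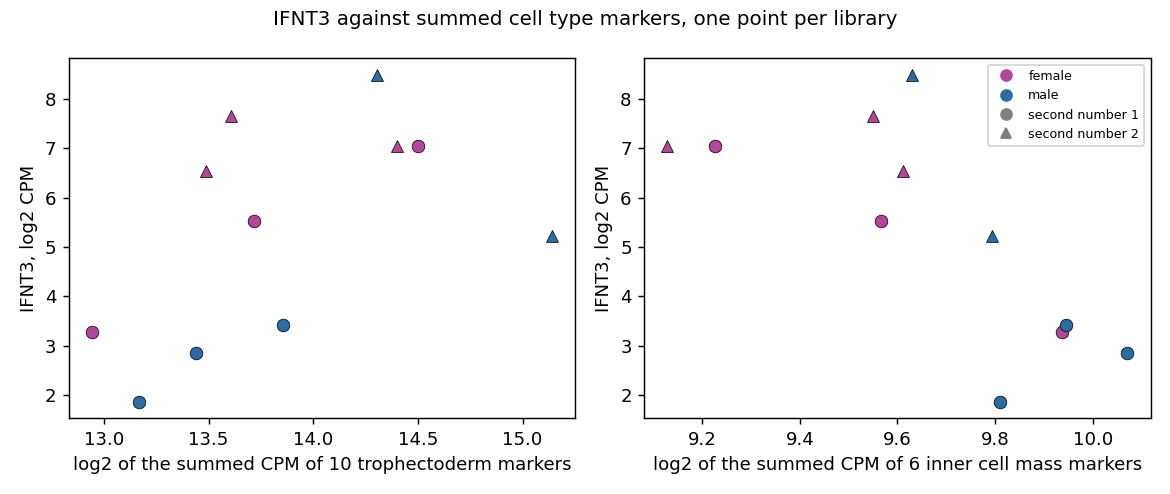
Level of IFNT3 (y axes, log2 CPM) against the log2 of the summed CPM of 10 trophectoderm markers (left) and 6 inner cell mass markers (right), with a point per library. IFNT3 is lower where the inner cell mass sum is higher (r = -0.73), and male 5 lies far right in the left panel.

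Transcription factors known for the trophectoderm and for interferon tau or PAG promoters were not called between the sexes in either direction. Of 18, 16 were tested, 12 of them fitted lower in males and 4 higher. Their median log2 fold change was -0.23, against 0.01 over all tested genes, of which 1.91% were called and 49.5% were fitted lower in males. An unadjusted p under 0.05 was found in JUN (log2 fold change -0.74, adjusted p = 0.337 by edgeR) and in GCM1 (log2 fold change 0.70, adjusted p = 0.362 by edgeR), named after their values were seen. These 2 of 16 compare with the 13.2% of all tested genes. For the 10 trophectoderm markers the counts were 5 lower and 5 higher, with a median of -0.06. PTGS2 alone of them had an unadjusted p under 0.05 (log2 fold change -1.20, adjusted p = 0.166 by edgeR).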

How the data were processed

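RNA-seq of 6 female and 5 male pools was used. The authors trimmed reads with fastp 0.20.0, aligned them to the ARS-UCD assembly with STAR 2.7.10b and counted them per gene with featureCounts, and deposited raw counts of 32637 genes without normalization. Libraries were made from amplified full-length cDNA, and the counting of reads that fit several places is not given in the sources used here. Symbols were joined to RefSeq positions (30271 matched).

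The sexes were compared with the quasi-likelihood test of edgeR 4.0.16 (R 4.3.3), after filterByExpr by sex (12802 genes) and TMM scaling. The block was the first number in each library's name, in place of the collection week. FDR is Benjamini-Hochberg over all tested genes. CPM were TMM-scaled, with a prior count of 2 on the log2 scale. DESeq2 1.42.0 was an alternative. Correlations used 100000 permutations in numpy 2.4.6, and the exact test of PAG12 used scipy 1.17.1. Replicates are separate pools.

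Members and gene lists were chosen with earlier results of these data known. The second library number was examined after the values were seen. Named singly were all members and, for the 3 most expressed, the 5 genes most alike in pattern. On simulated counts with 12453 genes tested, edgeR found 36.5% of true changes of log2 size 1 and 70.8% of size 2. Of its calls, 10.4% were false. The recovered shares are each over 96 changed genes and not over the members. The tested members varied more, with an SD of log2 CPM within sex of 0.91 (PAG2) to 2.60 (TKDP1). The median over all tested genes was 0.48. Recovery for genes that vary as much as the members was not tested, so these shares do not give it. Reads carry no molecular identifiers, so the limit of 3 counts covers counting error only. No sequences are printed.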

Additional observations from a re-analysis of the deposited data

How the results depend on the processing

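No member was called with no replicate block, the title's replicate number as replicate block, DESeq2, RLE factors, a stricter filter (which left out IFNT2, PAG8 and PAG11), glmTreat, an FDR of 0.05, both library numbers as blocks (chosen after seeing the data), or any 1 library left out. Without a filter on low counts 4 were called, all lower in males, where 743 of 23857 genes were called (3.11%): IFNT3 (log2 -1.36, adjusted p = 1.9e-05), TKDP1 (-1.09, adjusted p = 0.00499), IFNT2 (-2.40, adjusted p = 0.0427) and PAG8 (-2.37, adjusted p = 0.0472), all by edgeR. Their estimates stayed near those with the filter while their SEs fell, for IFNT3 from 1.20 to 0.255. The cause was not tested. SSLP1 changed sign, to 0.11 with no replicate block, 0.46 with the title number as replicate block, 0.026 with both numbers, and between -0.89 and 0.17 without single libraries. PAG11 ran from -1.48 to 1.41 without single libraries. Without male 2 the values of IFNT3, IFNT2 and TKDP1 were -3.23, -4.01 and -2.66, and without male 3 those of IFNT3 and TKDP1 were -0.60 and -0.35. PAG2 was 0.82 and PAG8 -1.46 with the title number as replicate block (unadjusted p = 0.0305 and 0.142 by edgeR). IFNT3 was -0.30 with no replicate block, -1.70 with the title number as replicate block and -1.85 with both library numbers as blocks. In the fit with both numbers, IFNT3 had an unadjusted p of 0.0187 and an adjusted p of 0.236 by edgeR. Deviations of same-numbered pools correlated at -0.11 to 0.35, over 0.1 in 2 of 5 pairs by title number and 4 of 10 by first library number, so pairing was not shown. The second number was not part of that check. The calls over all genes numbered 245, and 652 with DESeq2, 132 with the title number block, 125 at an FDR of 0.05, 62 with glmTreat, and 95 to 364 without single libraries.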

Other observations

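The genes most alike to IFNT3 over the 11 libraries (sex-centred Pearson r of log2 CPM, among 12801 other tested genes, with no test) were LOC112445660, a protein-coding gene with no chromosome given (r = 0.99, and whether it is an interferon copy was not tested), SLC10A1, a bile acid transporter (0.97), ADGRF5 (0.95), LMBR1 (0.94) and SUSD3 (0.92). LOC112445660 was at 235 CPM in male 2 and 1.09 CPM in male 3, the libraries with the highest and the lowest IFNT3. For SSLP1 they were LOC616199 (0.97), PTGES, a prostaglandin E synthase (0.96, 85.6 CPM in females and 114 CPM in males), RASL11A (0.96), SLC44A4 (0.95) and PGRMC1 on the X chromosome (0.95). For PAG2 they were LOC132344853 (0.92), PKD2L1 (0.91), H2BC5 (0.87), TNNC2 (0.87) and LOC101902669 (0.87). TKDP1 ranked 67 for IFNT3 and SSLP1 ranked 35.

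Genes known to respond to interferon are given beside IFNT3, 3 of them picked after their values were seen. ISG15 was at 68.6 CPM in male 5, which held 37.2 CPM of IFNT3, and at 0 in male 2, which held 360 CPM. MX1 was at 3.96, 2.39, 7.78, 10.3, 0.300 and 7.49 CPM in female 1 to female 6. In these females IFNT3 was at 133, 93.7, 9.59, 201, 45.9 and 133 CPM. In male 1 to male 5, MX1 was at 0.496, 4.12, 0.322, 0.0795 and 45.2 CPM. Whether MX1 follows IFNT3 was not tested. IFI6 was at 91.5 CPM in female 1, 64.7 CPM in male 5, 39.1 CPM in female 3 and 0.106 CPM in male 2. In female 1 and female 3, which held 133 and 9.59 CPM of IFNT3, ISG15 was at 6.85 and 4.22 CPM. Male 5 is the library that stood apart from the other males. Of 18 listed interferon receptor and response genes, 7 were tested and none was called between the sexes. Of all tested genes, 1.91% were called. The receptor chain IFNAR1 was at 12.6 CPM in females and 10.6 CPM in males, and IFNAR2 had 1 count in all.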
